A study of Mus musculus with 8 samples.

Results

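The transcription factor genes Maf, Pparg, Rxra, Tfec, Mitf, Tfeb, Bach1, Nfe2l2 and Runx3, which have been tied to the identity or upkeep of tissue macrophages, were examined in CD11c-positive splenocytes of lupus-prone and control mice. They were chosen by name, and all 9 were found among the 13786 protein-coding genes of the deposited table. RNA was sequenced from 4 C57BL/6 and 4 B6.SLE123 mice, females of 7 weeks for which no treatment is named. B6.SLE123 is a C57BL/6 line that carries lupus susceptibility intervals called Sle1, Sle2 and Sle3, so it differs from the controls at many genes at once. Totals ranged from 25761789 to 32931045 counts per mouse in C57BL/6 and from 25563070 to 37367094 in B6.SLE123, and the lowest count of any of these factors in a mouse was 156. The strain of each mouse was taken from its sample name, because the number at the end of the strain name in the genotype label goes up by 1 with each mouse.

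Macrophages of the spleen take up senescent red cells, recycle their iron and heme, and clear dying cells, and their gene program rests on combinations of transcription factors. MAF is a large Maf protein, which binds DNA through a basic leucine zipper and is known for keeping macrophages differentiated. PPARG, a nuclear receptor for fatty acid ligands, binds DNA together with RXRA and controls lipid uptake and storage. TFEC, MITF and TFEB are members of the MiT family, which drives lysosome genes, and TFEC is found mainly in macrophages. NRF2, the product of Nfe2l2, activates antioxidant and iron storage genes through sites that BACH1 blocks until heme displaces it. RUNX3 acts in cytotoxic lymphocytes and in several dendritic cell and macrophage types.

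Of the 9 factors, 5 fell more than 2-fold in B6.SLE123 mice, namely Maf, Tfec, Pparg, Rxra and Mitf. Nfe2l2 fell slightly, Runx3 rose by 1.30-fold, and Tfeb and Bach1 did not pass the test. The comparison used the quasi-likelihood test of edgeR with Benjamini-Hochberg adjustment over all genes, and a gene was called at an adjusted p below 0.05. By this rule 7 of the 9 factors were called, 6 of them lower and 1 higher, where 53.4% of all genes tested were called, 26.6% lower and 26.7% higher. Falls of more than 2-fold, found for 5 of 9 factors, made up 8.29% of all genes and rises of that size 2.76%, together 11.1%. The median log2 fold change, given throughout as B6.SLE123 over C57BL/6, was -1.33 for the 9 factors and -0.002 for all genes. In 6 factors the 4 mice of a strain did not overlap the 4 of the other strain, 5 of them lower and 1 higher, which was also seen in 48.9% of all genes, 24.5% lower and 24.4% higher. RNA was measured in bulk, so fewer cells of a type and less RNA per cell cannot be told apart.

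**Figure D1:**
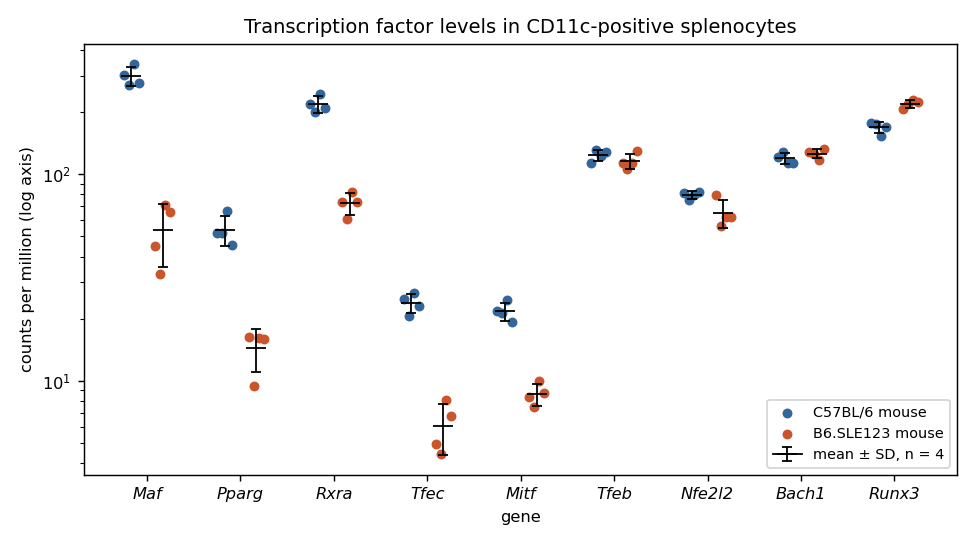
CPM, scaled counts (log axis), of the 9 factors in each mouse, with points from replicate 1 on the left to replicate 4 on the right, and the mean ± SD of 4 mice in black. The B6.SLE123 mice lie below every C57BL/6 mouse for Maf, Pparg, Rxra, Tfec and Mitf, above every C57BL/6 mouse for Runx3, and overlap the C57BL/6 mice for Tfeb, Nfe2l2 and Bach1.

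Promoter sequences are shown for the factors with a single start in the RefSeq promoter set of GRCm38.p6. These are 1 that fell more than 2-fold (Tfec), 1 that fell slightly (Nfe2l2) and 1 that did not pass the test (Bach1). Whether their motifs relate to the changes was not tested. The 250 bases before the start are printed in the direction of the gene, and capitals mark matches on either strand to 5 motifs, GAGGAA and GGAAGT (cores of sites for ETS factors such as PU.1), TGACNNNGC (core of the antioxidant response element bound by NRF2 and BACH1), CACGTG (E box of the MiT family) and TGTGGT (RUNX site). The Tfec window is chr6:16898442-16898691 on the minus strand, that of Nfe2l2 is chr2:75704664-75704913 on the minus strand, and that of Bach1 is chr16:87698704-87698953 on the plus strand.
Tfec: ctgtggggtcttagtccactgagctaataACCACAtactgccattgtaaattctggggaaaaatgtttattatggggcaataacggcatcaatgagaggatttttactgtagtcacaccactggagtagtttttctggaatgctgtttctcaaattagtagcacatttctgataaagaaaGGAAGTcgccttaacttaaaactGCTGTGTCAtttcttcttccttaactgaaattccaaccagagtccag
Nfe2l2: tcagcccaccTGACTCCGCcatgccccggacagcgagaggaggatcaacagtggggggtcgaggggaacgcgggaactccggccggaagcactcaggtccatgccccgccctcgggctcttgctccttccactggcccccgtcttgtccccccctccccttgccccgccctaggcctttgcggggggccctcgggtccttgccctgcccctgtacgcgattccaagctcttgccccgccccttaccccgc
Bach1: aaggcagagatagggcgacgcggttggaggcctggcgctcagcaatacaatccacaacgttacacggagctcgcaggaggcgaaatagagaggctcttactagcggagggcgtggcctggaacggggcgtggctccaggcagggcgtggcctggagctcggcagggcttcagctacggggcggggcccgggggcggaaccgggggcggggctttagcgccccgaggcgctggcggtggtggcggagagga

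The Tfec window held GGAAGT from base -70 to -65, an antioxidant response core from -47 to -39 and a RUNX match from -221 to -216, counted back from the start. The Nfe2l2 window held an antioxidant response core from -240 to -232, and the Bach1 window held no match, which says only that these letters are not in it. Tfec was poor in G and C, at 39.2%, where the median over 32841 promoters was 52.4%, while Bach1 and Nfe2l2 were at 69.2% and 70.4%. A promoter was found for 8 of the 9 factors, with 16 starts in all. Among the other starts, the 1st of Mitf and the 1st of Runx3 held RUNX matches, and the 2nd of Mitf and the 2nd of Pparg held antioxidant response cores, that of Pparg near a GAGGAA. The starts of Rxra and Tfeb held no match. Windows of the same length held GAGGAA in 23.3% of all promoters, GGAAGT in 19.7%, TGACNNNGC in 10.2%, CACGTG in 6.02% and TGTGGT in 14.0%.

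Maf, on the minus strand of chromosome 8 from 115682942 to 115707794 in mm10, fell the most of the 9 factors. It was at 303, 272, 343 and 278 CPM (the share of the counts of a mouse, scaled by TMM, times 1000000) in C57BL/6 replicates 1 to 4 and at 45.1, 32.8, 71.3 and 65.7 CPM in B6.SLE123 replicates 1 to 4. Every B6.SLE123 mouse was far below the lowest control, and the B6.SLE123 mice also varied more, with a coefficient of variation of 33.4% against 10.9%. This is a 5.58-fold fall, at a log2 fold change of -2.48 with a standard error of 0.21 (edgeR adjusted p = 3.21e-06). The antisense gene Gm15655 overlaps Maf, and whether reads were counted by strand is not given in the sources used here.

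The small Maf proteins lack an activation domain and serve as partners of NRF2 and BACH1. Their genes moved by less than 2-fold and in both directions. Mafg was at 75.7 ± 4.27 CPM in C57BL/6 and 56.6 ± 4.51 CPM in B6.SLE123 (SD, n = 4) and fell by 0.42 on the log2 scale (edgeR adjusted p = 0.000225). Maff rose by 0.29 (edgeR adjusted p = 0.00202) and Mafk by 0.18 (edgeR adjusted p = 0.0136). None of these 3 genes overlapped between the strains, which was also the case for 48.9% of all genes.

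Pparg and Rxra, whose products pair as a receptor dimer, both fell. Pparg, on the plus strand of chromosome 6 from 115360951 to 115490399, was at 52.0, 51.7, 66.4 and 45.6 CPM in C57BL/6 mice and at 16.2, 9.43, 16.2 and 15.9 CPM in B6.SLE123 mice, with replicate 2 below the rest of its strain. It changed by -1.91 on the log2 scale (standard error 0.17, edgeR adjusted p = 4.52e-06), or 3.76-fold lower. Rxra, on the plus strand of chromosome 2 from 27676440 to 27762957, was at 218, 200, 246 and 209 CPM in C57BL/6 mice and at 73.3, 60.5, 81.9 and 73.6 CPM in B6.SLE123 mice. It fell 3.02-fold, by 1.59 on the log2 scale (standard error 0.09, edgeR adjusted p = 4.28e-07), with no overlap. The log2 ratio of Pparg to Rxra was lower by 0.32 in B6.SLE123, at -2.35 ± 0.23 against -2.02 ± 0.13 (SD, n = 4), which did not reach the threshold (exact two-sided permutation test, p = 0.0571, adjusted p = 0.0667 over 7 ratios). Without B6.SLE123 replicate 2 the difference was -0.21. The antisense gene Gm44079 overlaps Pparg.

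The related receptors differed in how they moved. Rxrb, at 139 and 132 CPM on average in C57BL/6 and B6.SLE123, had a log2 fold change of -0.07 (95% interval -0.16 to 0.02) and did not pass the test. Ppard fell by 0.22 (edgeR adjusted p = 0.00447). Rxrg fell by 1.67 (edgeR adjusted p = 0.000775) from a very low level, 0.875 ± 0.248 CPM in C57BL/6 and 0.275 ± 0.0577 CPM in B6.SLE123 (SD, n = 4).

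The MiT family split. Tfec, on the minus strand of chromosome 6 from 16833373 to 16898441, was at 25.0, 20.7, 26.7 and 23.2 CPM in C57BL/6 mice and at 4.94, 4.43, 8.11 and 6.77 CPM in B6.SLE123 mice. It changed by -1.98 on the log2 scale (standard error 0.17, edgeR adjusted p = 3.31e-06), or 3.96-fold lower, with no overlap. Mitf, on the plus strand of chromosome 6 from 97807052 to 98021349, was at 21.8, 21.3, 24.5 and 19.2 CPM against 8.38, 7.47, 9.97 and 8.70 CPM, a log2 fold change of -1.33 (standard error 0.10, edgeR adjusted p = 1.80e-06), or 2.52-fold lower. A processed pseudogene on the other strand, Gm15531, overlaps Mitf.

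Tfeb, on the plus strand of chromosome 17 from 47737030 to 47792419, was at 114, 131, 122 and 129 CPM in C57BL/6 mice and at 114, 106, 114 and 129 CPM in B6.SLE123 mice, so the strains overlapped. Its log2 fold change was -0.10 (95% interval -0.25 to 0.04, edgeR adjusted p = 0.209). Without B6.SLE123 replicate 4 it was -0.17 and passed the test (edgeR adjusted p = 0.0296). Tfe3, the remaining member of the family in the table, fell by 0.24 (edgeR adjusted p = 0.00250), from 115 ± 0.920 to 97.3 ± 7.11 CPM (SD, n = 4).

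Ratios within a mouse set the members of the family against each other. The log2 ratio of Tfec to Tfeb went from -2.38 ± 0.23 in C57BL/6 to -4.27 ± 0.35 in B6.SLE123, and that of Mitf to Tfeb from -2.51 ± 0.20 to -3.74 ± 0.17 (SD, n = 4). Tfec also fell more than Mitf, by 0.68 on the log2 scale. In each of these 3 ratios no mouse of a strain reached the other (two-sided exact permutation, p = 0.0286, a floor set by 4 mice against 4), and the adjusted p over 7 ratios computed was 0.05, which is not below the threshold.

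Of NRF2 and its antagonist BACH1, the gene of the former fell slightly and that of the latter did not pass the test. Nfe2l2, on the minus strand of chromosome 2 from 75675513 to 75704641, was at 81.5, 74.7, 79.0 and 82.5 CPM in C57BL/6 mice and at 79.4, 56.2, 61.9 and 61.9 CPM in B6.SLE123 mice. Replicate 1 of B6.SLE123 lay within the control range and the other 3 mice below it. The fit put the change at -0.29 on the log2 scale (standard error 0.09, edgeR adjusted p = 0.0186). Bach1, on the plus strand of chromosome 16 from 87698945 to 87733346, was at 122, 129, 114 and 114 CPM in C57BL/6 mice and at 128, 125, 118 and 133 CPM in B6.SLE123 mice, which overlap, and its log2 fold change was 0.08 (95% interval -0.04 to 0.20, edgeR adjusted p = 0.251). Without B6.SLE123 replicate 4 it was 0.04. The log2 ratio of Nfe2l2 to Bach1 was -0.59 ± 0.14 in C57BL/6 and -0.97 ± 0.21 in B6.SLE123 (SD, n = 4), a fall of 0.38 that did not reach the threshold (exact two-sided permutation test, p = 0.0571, adjusted p = 0.0667). A small nuclear RNA gene, Gm24996, overlaps Nfe2l2.

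Among their relatives, Nfe2l1, which encodes an activator of proteasome genes, fell by 0.16 (edgeR adjusted p = 0.0093). Bach2, a repressor known from B cells, fell by 0.44 (edgeR adjusted p = 0.00595). Of 7 B cell markers, 6 were also lower, where 26.6% of all genes tested were lower, and the median log2 fold change was -0.61. The part of the B cell markers in the fall of Bach2 was not tested. Keap1, whose product marks NRF2 for degradation, had a log2 fold change of 0.04 (95% interval -0.06 to 0.14). Nfe2 and Nfe2l3 were at 2.79 to 4.32 CPM on average and did not pass the test.

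Runx3 was the only one of the 9 factors to rise. Located on the plus strand of chromosome 4 from 135120652 to 135177990, it was at 176, 175, 153 and 170 CPM in C57BL/6 mice and at 206, 220, 228 and 225 CPM in B6.SLE123 mice, so that each B6.SLE123 mouse exceeded every control. The fit put the rise at 0.38 on the log2 scale (standard error 0.05, edgeR adjusted p = 0.000140). Cbfb, the shared partner that helps RUNX proteins bind DNA, rose by 0.33 (edgeR adjusted p = 4.70e-05), whereas Runx1 fell by 0.24 (edgeR adjusted p = 0.00180) and Runx2 had a log2 fold change of 0.11 (edgeR adjusted p = 0.251). The log2 ratio of Runx3 to Runx1 rose from 1.21 ± 0.16 to 1.84 ± 0.09 (SD, n = 4), and the strains were apart in every mouse (two-sided exact permutation, p = 0.0286, adjusted p = 0.05). Markers of lymphocytes that use Runx3 were present in both strains. The 6 T cell markers summed to 46.5 to 52.8 CPM in C57BL/6 mice and 48.4 to 56.7 CPM in B6.SLE123 mice. Of them only Cd5 rose, from 19.2 to 27.6 CPM on average, and Lck fell (-0.37). Cd3e (-0.49), Cd3d (-0.32), Cd3g (-0.21) and Cd8b1 (-0.19) did not pass the test. None of the 6 NK cell markers passed the test. They summed to 68.0 to 92.4 CPM in C57BL/6 mice and 54.6 to 79.5 CPM in B6.SLE123 mice, most of it from Klrk1, at 54.0 and 46.0 CPM on average. The part of these cells in the rise of Runx3 was not tested. Of 7 markers of type 1 conventional dendritic cells, 5 were higher, where 26.7% of all genes tested were higher. Batf3 was lower (-0.14, edgeR adjusted p = 0.0384) and Cadm1 did not pass the test (-0.18). The 7 markers summed to 2483 to 2819 CPM in C57BL/6 mice and 4048 to 5013 CPM in B6.SLE123 mice, most of it from Wdfy4. The part of these dendritic cells in the rise of Runx3 was not tested either. The antisense gene Gm16224 overlaps Runx3.

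**Figure D2:**
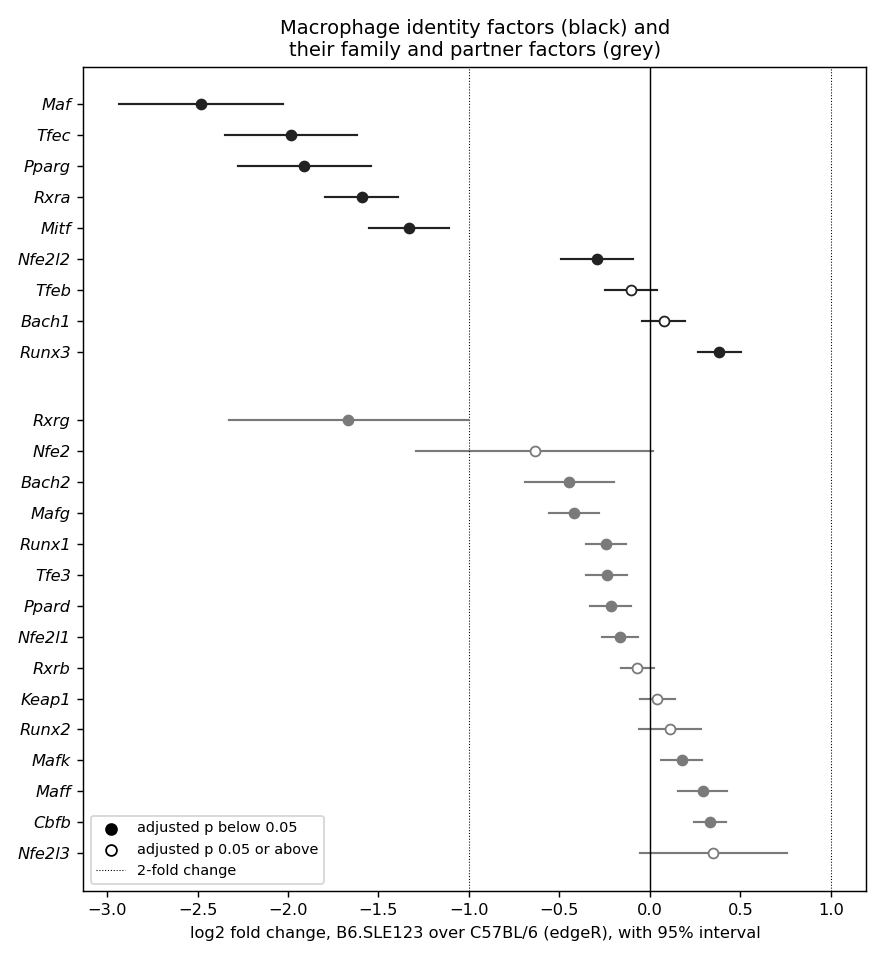
Log2 fold change of B6.SLE123 over C57BL/6 with its 95% interval from edgeR, for the 9 factors (black) and 15 family and partner factors (grey), with filled points at an adjusted p below 0.05. The intervals of Maf, Tfec, Pparg, Rxra and Mitf lie wholly below a 2-fold fall, and those of Tfeb and Bach1 include 0.

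Levels per length place the factors in a different order in each strain. Per kilobase of exon, Rxra was the most abundant in C57BL/6 mice at 39.9 ± 3.67 CPM per kilobase, followed by Maf at 36.3 ± 3.96 and Runx3 at 33.7 ± 2.13 (SD, n = 4), and neighbours among these 3 had overlapping ranges. Tfeb, Nfe2l2, Bach1 and Pparg came next, from 21.9 down to 18.3 CPM per kilobase, and neighbours among them overlapped as well. Tfec, at 4.27, and Mitf, at 3.50 CPM per kilobase, were the least abundant and also overlapped. In B6.SLE123 mice Runx3 led alone at 43.9 ± 1.98 CPM per kilobase, and Bach1, Tfeb, Nfe2l2 and Rxra followed from 20.4 to 13.2, each overlapping the next. Maf stood at 6.52 ± 2.18 and Pparg at 4.89 ± 1.13, which overlapped, and Mitf and Tfec at 1.39 and 1.08 CPM per kilobase.

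The cells are labelled dendritic cells, and the general dendritic cell markers Itgax, Flt3, Zbtb46, H2-Ab1 and Cd74 were well expressed, with Itgax at 1329 ± 77.9 CPM in C57BL/6 and 1543 ± 93.4 CPM in B6.SLE123 (SD, n = 4). Macrophage markers were present too. Csf1r, the growth factor receptor of macrophages, was at 2324 ± 230 CPM in C57BL/6 mice and 515 ± 134 CPM in B6.SLE123 mice (SD, n = 4). All 12 of 12 red pulp macrophage markers were lower by more than 2-fold, where 8.29% of all genes were. The markers had a median log2 fold change of -2.33 and a range of -2.75 to -1.66, and none of them was at 0. The 12 include the complement genes C1qa, C1qb and C1qc (-2.26, -2.25 and -2.35), and were listed with earlier results of these data known. The summed level of all 12 was 9603 to 12576 CPM in C57BL/6 mice and 1507 to 2893 CPM in B6.SLE123 mice. All 5 dendritic cell markers rose, by 0.22 to 0.39 on the log2 scale, where 26.7% of all genes tested were higher. Maf, Pparg, Rxra, Tfec and Mitf fell as well, and all but Maf fell by less than the mean of the macrophage markers. The part of the macrophage markers in these falls was not tested.

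Within a strain the factors followed the markers in part. Replicate 3 had the highest mean of the 12 macrophage markers among C57BL/6 mice, at 9.34 log2 CPM, and also the highest Maf, Pparg, Rxra, Tfec and Mitf. Replicate 2 had the lowest marker mean among B6.SLE123 mice, at 6.29 log2 CPM, and also the lowest of these 5 factors. At the other ends the order differed. The highest marker mean among B6.SLE123 mice was in replicate 4, at 7.21 log2 CPM, whereas Maf, Rxra, Tfec and Mitf were highest in replicate 3 and Pparg in replicate 1. Among C57BL/6 mice the marker mean was lowest in replicate 2, at 8.99 log2 CPM, as were Maf, Rxra and Tfec, whereas Pparg and Mitf were lowest in replicate 4. Runx3 was lowest in C57BL/6 replicate 3, and neither Bach1 nor Tfeb was highest there.

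Set beside the 12 markers, whose log2 fold changes ran from -2.75 to -1.66, the fall of Maf (-2.48) lay among them. Those of Tfec (-1.98) and Pparg (-1.91) were inside the range only through Adgre1 at -1.66, the next marker being Timd4 at -2.05. The falls of Rxra (-1.59) and Mitf (-1.33) were smaller than that of any of the 12. Nfe2l2, Tfeb, Bach1 and Runx3 lay between -0.29 and 0.38. Relative to the marker mean of each mouse, Maf was lower in B6.SLE123 by 0.20 log2 units, with overlapping mice. Tfec, Pparg, Rxra and Mitf were higher by 0.33, 0.42, 0.74 and 1.01, and Nfe2l2, Tfeb, Bach1 and Runx3 by 2.03 to 2.72, all without overlap. These differences from the markers were not tested.

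**Figure D3:**
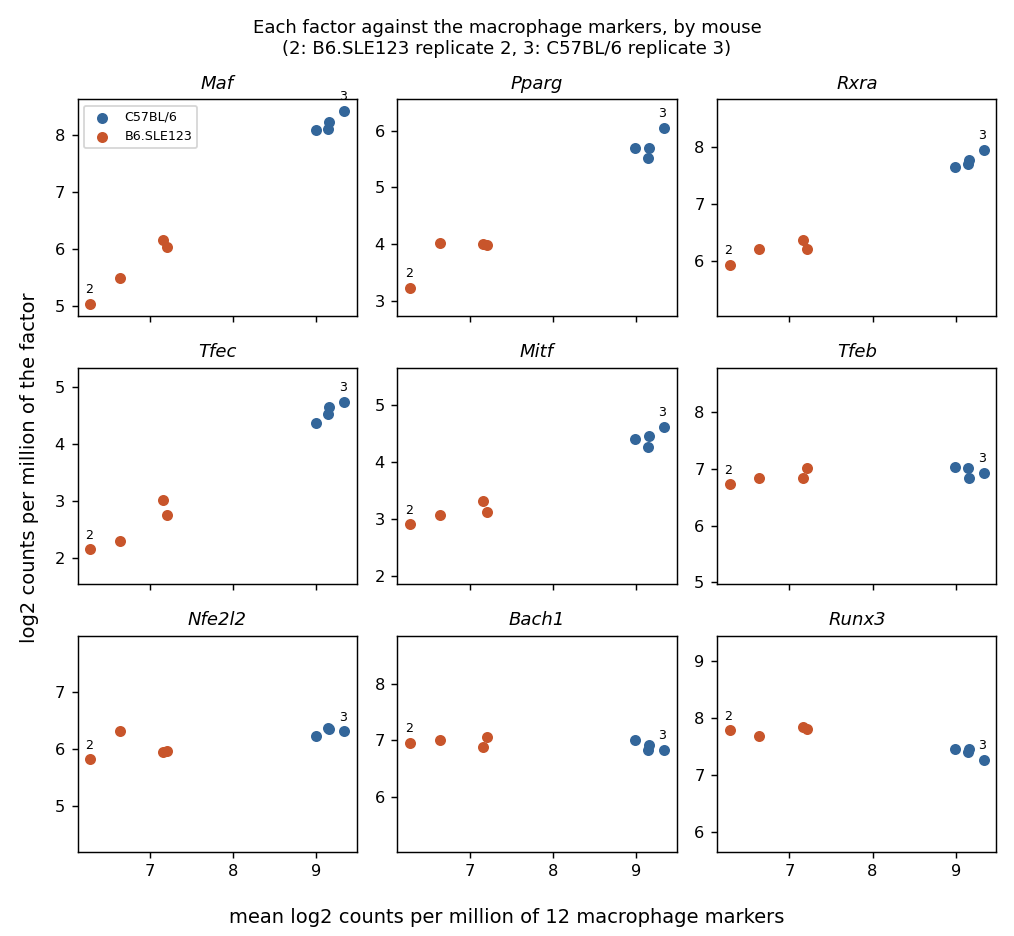
Log2 CPM of each factor (vertical axis, the same span in every panel) against the mean log2 CPM of 12 macrophage markers (horizontal axis) in each of 8 mice. Maf and Tfec are lowest in B6.SLE123 replicate 2 and highest in C57BL/6 replicate 3, as the markers are, whereas Tfeb and Bach1 stay level from a marker mean of 6.29 to one of 9.34.

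Some genes had almost the same profile over the 8 mice as a factor that fell. Likeness was the root mean square difference between centred log2 CPM profiles, over 11737 genes with a mean of at least 1 CPM, and is a description without a test. The profiles include the strain difference, so the nearest genes were also ones with a log2 fold change close to that of the factor. Those nearest to Maf (-2.48) were at -2.46, -2.55 and -2.51, and those nearest to Mitf (-1.33) at -1.29, -1.36 and -1.24. Nearest to Maf were Ptprm (0.06), Ptgs1 (0.07), which encodes a prostaglandin synthase, and Mrc1 (0.09), which encodes the macrophage mannose receptor. Nearest to Tfec were Myo10 (0.08), Tlr8 (0.09), a receptor for RNA, and Tbxas1 (0.09), the thromboxane synthase gene. Nearest to Pparg were Cmklr1, the chemerin receptor gene, Lrp12 and Cplx2, at 0.09 to 0.10. Rasgrp2, Cmtm4 and Hip1 were nearest to Rxra (0.06 to 0.07), and Atxn1, Smox and Wwp1 to Mitf (0.04 to 0.06).

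Other regulators of macrophages split as well. Of 14 listed, 13 were in the table, and 9 fell, 2 rose and 2 did not pass the test, with a median log2 fold change of -0.71. Spic, the regulator of red pulp macrophages, was at 344 to 413 CPM in C57BL/6 mice and 38.0 to 73.1 CPM in B6.SLE123 mice, for a log2 fold change of -2.73 (edgeR adjusted p = 5.57e-07), and Nr1h3, which encodes the oxysterol receptor LXR alpha and pairs with RXR, one of -2.41 (edgeR adjusted p = 1.11e-06). Nr1h2, encoding LXR beta, had a log2 fold change of -0.04 and did not pass the test. Zeb2 fell by 1.16, Cebpb by 0.89, Nr4a1 by 0.88, Id3 by 0.78, Klf2 by 0.71, Cebpa by 0.60 and Klf4 by 0.36 (edgeR adjusted p from 3.3e-06 to 0.0214). Of these only Klf4 overlapped between the strains, where 48.9% of all genes did not overlap. Spi1, which encodes PU.1, rose by 0.14 (edgeR adjusted p = 0.0169), and Irf8, needed for type 1 conventional dendritic cells, by 0.48 (edgeR adjusted p = 0.00514). Irf8 overlapped between the strains, at 749 CPM in B6.SLE123 replicate 4 and 771 CPM in C57BL/6 replicate 1. Across the family and partner factors, 16 of 19 were in the table, and 8 fell, 3 rose and 5 did not pass. Over all genes tested, 26.6% were lower and 26.7% higher.

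Genes known as targets were then read from lists, where 26.6% of all genes tested were lower and 26.7% higher. The part of the macrophage markers in the changes of these lists was not tested. Of 14 PPARG and RXR targets in the table, 8 fell and 4 rose, with a median log2 fold change of -0.37. Angptl4, an inhibitor of lipoprotein lipase, was at 22.4 ± 5.67 CPM in C57BL/6 and 3.04 ± 1.09 CPM in B6.SLE123 (SD, n = 4), a log2 fold change of -2.92 (edgeR adjusted p = 2.89e-06). Abca1, the cholesterol exporter, and Lpl, lipoprotein lipase, had log2 fold changes of -1.67 and -1.66. Cd36, a fatty acid and scavenger receptor, went the other way, from 76.3 ± 9.17 to 152 ± 23.2 CPM (SD, n = 4), a log2 fold change of 0.99 (edgeR adjusted p = 2.60e-05), followed by Acsl1 at 0.46, with overlapping mice, and Fabp5 at 0.34.

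Of 27 lysosomal targets of MiT factors listed, 26 were in the table. Of these 26, 17 fell, 2 rose and 7 did not pass the test, and the median log2 fold change was -0.37. The protease genes Ctsd and Ctsb fell by 1.73 and 1.66 (edgeR adjusted p = 8.99e-06 and 7.63e-07) and the sialidase gene Neu1 had a log2 fold change of -1.12 (edgeR adjusted p = 4.68e-06). Uvrag, an autophagy gene, rose by 0.38 and Gpnmb, a known MITF target, by 0.77, the latter at only 0.839 and 1.41 CPM on average and with overlapping mice. Of the proton pump subunits in the list, Atp6v0d2 was not in the table. Among the 4 that were, Atp6v1b2 fell by 0.26 (edgeR adjusted p = 0.0104), and Atp6v0d1 (-0.10), Atp6v1h (-0.01) and Atp6v1c1 (0.01) did not pass the test.

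Of 22 NRF2 targets, 13 fell, 3 rose and 6 did not pass, with a median log2 fold change of -0.39. The falls over 2-fold were Slc40a1 (-2.68), the iron exporter gene, Hmox1 (-2.49), heme oxygenase, Ftl1 (-2.14), ferritin light chain, Blvrb (-1.67), biliverdin reductase, and Gstm1 (-1.30), a glutathione transferase. The first 4 of these act in heme and iron recycling, and Hmox1 and Slc40a1 are also highly expressed by red pulp macrophages. Gclc, which makes glutathione, rose by 0.52 (edgeR adjusted p = 0.00141), from 110 ± 6.55 to 157 ± 27.2 CPM (SD, n = 4), while its partner subunit gene Gclm fell by 0.87 (edgeR adjusted p = 4.49e-06). Taldo1 rose by 0.26 and Ugdh by 0.13, and Nqo1, a defining NRF2 target, was at only 0.202 and 0.225 CPM on average.

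**Figure D4:**
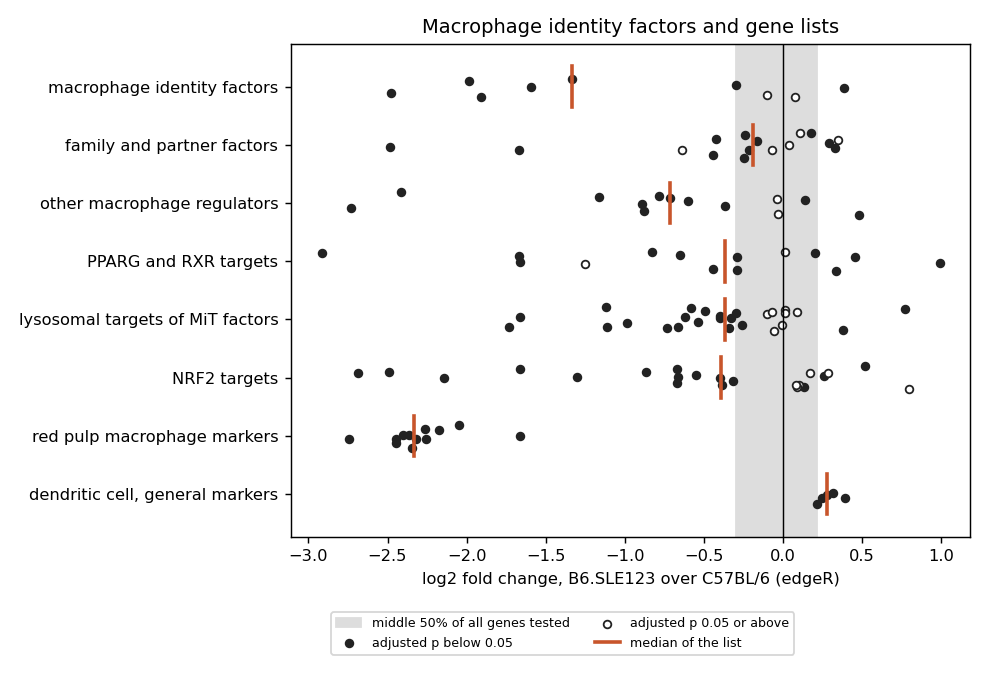
Log2 fold change of B6.SLE123 over C57BL/6 for each gene of the lists (points, filled at an adjusted p below 0.05, spread vertically for clarity), with the median of each list in orange and the middle 50% of all genes in grey. The target lists have medians from -0.39 to -0.37 with long tails of falls, the macrophage markers centre on -2.33, and the general dendritic cell markers lie between 0.22 and 0.39.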

How the data were processed

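CD11c-positive splenocytes of 4 C57BL/6 and 4 B6.SLE123 mice were profiled by RNA sequencing. According to the methods and the submitters' processing notes, the authors checked reads with FastQC, trimmed with cutadapt, used STAR for alignment to mm10 and featureCounts for quantification, and deposited raw counts per gene and mouse. The versions, the gene annotation and the strand setting are not given in the sources used here. Each listed gene has a median count of 5 or more in one strain or the other. The deposited table also holds the authors' DESeq2 comparison of the strains (mean normalized signal, log2 fold change, its standard error and a test score, p-value and adjusted p-value, and fold change as a ratio), which was not used.

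Counts were scaled by TMM and compared with the quasi-likelihood F test of edgeR 4.0.16 in R 4.3.3, adjusted over 13786 genes without a filter. The procedure was tested on simulated data. A prior count of 2 was added for log2 CPM. Levels per kilobase use the merged exon length in GENCODE M21, which gives all 9 factors the same coordinates as the table. For 21 genes the symbol, stored as a date, was restored. Ratios were tested by exact permutation of mice between strains (two-sided). Within a strain, chi-square over its degrees of freedom between mice was 4.96 to 18.9, so each mouse was kept as a replicate. The labels do not say more of how the mice differ, so p-values set the strain difference against the spread between these mice. A batch shared by the mice of a strain could not be told apart from the strain. The factors, lists, motifs and ratios were chosen with earlier results of these data known.

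Genes were named by a rule: every factor present, the family, partner and regulator genes (apart from 2 that are not reported here but stay in the counts and medians, as does 1 of 7 ratios in the adjustment), the 3 largest rises and falls among called genes of each target list, the 3 nearest profiles of each factor that fell more than 2-fold, and defining markers. Atp6v1b2, Atp6v0d1, Atp6v1h, Atp6v1c1, C1qa, C1qb, C1qc, Cd5, Lck, Cd3d, Cd3g, Cd8b1, Klrk1, Batf3, Cadm1, Wdfy4, Gclm, Nqo1, Blvrb, Gstm1, Cd74, Sirpa and Cox6a2 were named after their values were seen. Alternatives were relative log expression factors, a minimum of 10 counts per sample (12053 genes), DESeq2 1.42.0, the replicate number as a block, a prior count of 0.5, and leaving out each mouse. The ratios and their alternatives were added after the data were seen. Marker lists also covered type 2 conventional and plasmacytoid dendritic cells, monocytes, neutrophils, plasma cells and erythroid cells.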

Additional observations from a re-analysis of the deposited data

Results flagged for a closer look

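In 4 of 100 groups of 4 mice, 1 mouse lay apart from the other 3 by a test on the gap between values, where chance gives about 5. Pparg was at 3.25 log2 CPM in B6.SLE123 replicate 2, below a median of 4.01, and its log2 fold change was between -1.99 and -1.75 when any 1 mouse was left out. Tfe3 was at 6.86 in C57BL/6 replicate 1 (median 6.84), Cebpa at 5.84 in C57BL/6 replicate 2 (median 5.95) and Nr1h2 at 7.01 in B6.SLE123 replicate 1 (median 7.12).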

How the results depend on the processing

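Over 12 alternative settings, 107 of 108 log2 fold changes of the 9 factors stayed on the same side of zero and of the threshold, the exception being Tfeb without B6.SLE123 replicate 4 (-0.17). Of 144 values for counts of genes, 143 stayed within 1.5 times. The exception was the number of genes changed more than 2-fold, 985 under a minimum of 10 counts per sample and 1524 without it (12053 and 13786 genes tested). When 1 mouse at a time was left out, 6496 to 7013 genes were called (3193 to 3511 higher, 3289 to 3630 lower), 1399 to 1578 of them more than 2-fold changed, and 7 to 8 factors were called, 6 to 7 of them lower and 5 lower by more than 2-fold. The called genes numbered 11 to 12 among family and partner factors, 9 to 11 among other regulators, 10 to 13 among PPARG and RXR targets, 18 to 19 among lysosomal targets and 15 to 17 among NRF2 targets.

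With a mouse left out, the exact permutation test of a ratio has a smallest p of 0.0571. Replicate numbers gave no clear sign of pairing, though these correlations cannot exclude it. Same-numbered mice had correlations of 0.05, 0.17, 0.05 and 0.12, all positive, in their deviations from the strain means. Not every mouse correlated best with its own number. With the replicate number as a block, 7183 genes were called against 7356, and 7 factors as before. Depth was no limit for the 9 factors, since the lowest count was 156.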

Other observations

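The other marker lists moved as follows, where 26.6% of all genes tested were lower and 26.7% higher. Type 2 conventional dendritic cell markers had a median log2 fold change of -0.29 (2 of 6 lower), plasmacytoid dendritic cell markers 0.26 (2 of 5 higher, 1 lower), monocyte markers -0.09 (1 of 5 lower), plasma cell markers 0.29 (2 of 5 higher, 2 lower), neutrophil markers 0.64 at a summed level of at most 11.1 CPM in any mouse (2 of 4 higher), T cell markers -0.27 (1 of 6 higher, 1 lower), NK cell markers -0.23 and erythroid markers -2.72 (4 of 5 lower). Sirpa, which marks type 2 dendritic cells and is also carried by macrophages, fell by 0.91, and the plasmacytoid marker Cox6a2 had a log2 fold change of -2.71.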
